A study of Mus musculus with 31 samples.

Results

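The nuclear-encoded subunits of the mitochondrial oxidative phosphorylation system were followed in the livers of 31 male C57BL6/J mice. Members were all probes whose gene name marked a subunit of complex I (Nduf), II (Sdh), III (Uqcr), IV (Cox4 to Cox8) or V (Atp5). The array held 129 such probes for 84 gene names, and 124 probes for 83 names passed the filter on dim spots and stood among the 36059 probes tested. They comprised 54 probes of complex I, 8 of complex II, 11 of complex III, 17 of complex IV and 34 of complex V. The name rule also took in 5 probes of relatives or a pseudogene that are not established subunits, namely Ndufa4l2, Atp5s, Atp5sl and Atp5c1-ps. Of the 124 probes, 115 were well above background on at least 26 arrays and 107 on all arrays, while 9 passed only through at least 6 arrays of 1 group. Probes that list a RefSeq mRNA, here and below without predicted ones, numbered 101. More than 1 probe read 31 of the genes, so probes of 1 gene are not separate subunits.

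Oxidative phosphorylation passes electrons from NADH, at complex I, and from succinate, at complex II, through ubiquinone to complex III, and then through cytochrome c to oxygen at complex IV. Complexes I, III and IV pump protons across the inner mitochondrial membrane, and complex V, the ATP synthase, uses the gradient to make ATP. The catalytic centers of complexes III and IV and much of the membrane arm of complex I are encoded in mitochondrial DNA, whereas complex II and most small accessory subunits come from nuclear genes. Hepatocytes are rich in mitochondria and rely on this system for gluconeogenesis, ureagenesis and fatty acid handling.

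ChREBP is a glucose-responsive transcription factor encoded by Mlxipl, with an α isoform and a shorter β isoform started from exon 1b. The 8 ChREBPβ-deficient mice carried a CRISPR deletion of exon 1b and were compared with 8 WT littermates. The 7 total ChREBP-KO mice were Mlxipl-null, lacking both isoforms in all tissues, and were compared with 8 WT littermates of their own line. Mice of all 4 groups went without food for 24 hours and were then given diet and water with 20% glucose over 18 hours. Ages were not used here. Both deletions were constitutive, so effects in liver cannot be told apart from effects of other tissues on the liver. The probe of Mlxipl with the highest signal read 13.89 to 14.30 in total ChREBP-KO mice and 15.14 to 15.48 in their WT littermates, and 14.40 to 14.84 against 14.88 to 15.33 in the ChREBPβ line. A dimmer Mlxipl probe overlapped between the groups of each line (10.06 to 10.86 against 10.62 to 11.47, and 10.30 to 10.88 against 10.49 to 11.70), and another did not separate them (10.79 to 11.10 against 10.90 to 11.08, and 10.84 to 11.08 against 10.75 to 11.25).

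Values are log2 of the fluorescence of a spot after quantile normalization, so a log2 difference of 1 is a doubling. A probe is called higher or lower when its limma p, adjusted over all 36059 probes, is under 0.05. Hepatocyte markers were high in all groups, but 5 arrays of the total ChREBP-KO line also carried markers of other tissues. Replicates 2, 7 and 8 of the WT littermates had high signals of the pancreatic markers Ctrb1 and Cel. Ctrb1 read 10.09 to 11.94 there, against 8.41 to 9.12 on the other arrays, and Cel 7.76 to 9.33, against at most 6.53. Cela2a was highest in replicate 2 (13.50), but its median was higher in total ChREBP-KO mice (10.49) than in these WT littermates (9.69). Amy2a5 overlapped between all groups, and Pnlip, Cpa1 and Prss2 were not kept. WT replicates 2 and 5 had the adipocyte marker Cfd at 11.03 and 11.44, against at most 5.59 in that line's other WT mice. Of the other adipocyte markers, Retn (8.40) and Fabp4 (11.56) were also highest in replicate 5 among the WT mice of that line. Plin1 (5.48 to 5.89) and Lep (8.05 to 8.52) varied little in these WT mice, and Adipoq was not kept. Cfd was high throughout the ChREBPβ line, at 6.44 to 12.60. Total ChREBP-KO replicate 6 had high signals of the muscle markers Acta1 (11.36, at most 6.03 elsewhere) and Tnnt3 (11.31, at most 6.87 elsewhere), together with Cfd at 12.94. Myh4 and Myl1, the other muscle markers kept, reached at most 6.16 and 5.76 in its group, in other replicates. Total ChREBP-KO replicate 5 had high signals of the cholangiocyte markers Krt19 (11.03, against a median of 8.06 in its group) and Epcam (8.79, against 6.22). The other markers of that list, Krt7 and Sox9, were highest in replicate 1 of the group. The summed signal of the 4 markers in replicate 5 was 11.51, against at most 10.21 on the other arrays. The main counts are given with and without the first 5 of these arrays, and without all 6. In bulk tissue, fewer cells of a type and less RNA per cell cannot be told apart.

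Many probes of complexes I, III, IV and V were called higher in total ChREBP-KO livers than in WT livers, by small amounts. Of the 124 probes, 63 were called higher, where 14.5% of all probes were, and 2 were called lower, where 14.6% of all probes were. The calls covered 51 genes higher and 2 lower, Ndufa8 and Ndufa13. Ndufa13 was lower only on a dim probe that the array annotation describes as a transcript of the neighboring Yjefn3. The median log2 difference over the members was 0.13, against 0.01 over all probes, and 111 of the 124 differences were above 0. In 27 probes every total ChREBP-KO mouse lay above every WT littermate, which held for 3.26% of all probes. In 1 probe, that of Ndufa8, every total ChREBP-KO mouse lay below, which held for 4.14% of all probes.

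Calls were more frequent among bright probes. Among the 73 members with a mean log2 signal of at least 14, 46 were called higher and none lower by limma (51 and 0 at an unadjusted p under 0.05), with a median of 0.15. All 1698 probes of that brightness had a median of 0.02, with 22.3% called higher and 19% lower. The 51 members under 14 had 17 higher and 2 lower, a median of 0.11 and 10 of the 13 differences below 0. Of the 107 members well above background on all arrays, 60 were called higher and 2 lower. Taking 1 probe per gene left 49 of 83 higher and 1 lower, and probes that list a RefSeq mRNA gave 55 of 101 higher and 1 lower. The 23 probes that list none had 8 higher and 1 lower, 8 differences below 0 and a median of 0.06. Without the 5 arrays with markers of other tissues, 62 probes were called higher and 2 lower, and without all 6 arrays 56 and 3, the third being a dim probe of Ndufb2. On the scan day with 15 arrays alone 37 probes were called higher, and on the day with 16 arrays 15 were.

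**Figure D1:**
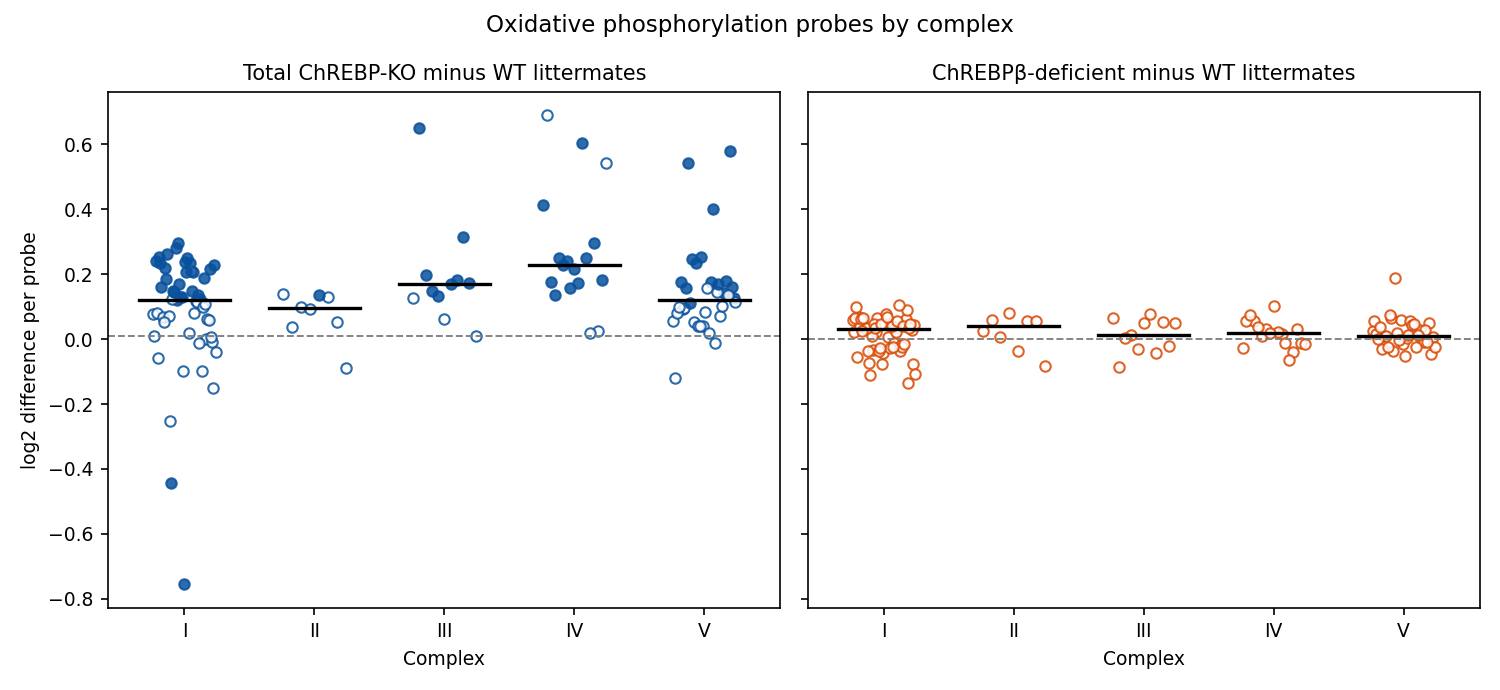
Each point is 1 probe, placed by its complex and its log2 difference between knockout mice and their WT littermates, for the total ChREBP-KO line (left) and the ChREBPβ line (right). Filled points were called by limma, bars are medians and the dashed line is the median of all probes; in the left panel the medians run from 0.10 for complex II to 0.23 for complex IV.

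The complexes differed in how many of their probes were called and in the size of the difference. Complex IV had 13 of 17 probes higher and a median of 0.23, a fold of 1.17. Complex III had 8 of 11 higher with a median of 0.17. Complex I had 26 of 54 higher and 2 lower with a median of 0.12, and complex V had 15 of 34 higher with a median of 0.12. Complex II had 1 of 8 higher, 12.5%, a share near that of all probes, with a median of 0.10. This median was close to those of complexes I and V, and the 8 probes read only 4 genes. Within the scan day of 15 arrays the medians for complexes I to V were 0.15, 0.08, 0.20, 0.22 and 0.14, and within that of 16 arrays 0.09, 0.12, 0.15, 0.21 and 0.10. Without the 5 arrays with other markers they were 0.18, 0.11, 0.19, 0.24 and 0.17, and without all 6 arrays 0.18, 0.13, 0.19, 0.25 and 0.16.

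Within complexes the calls fell mostly on small accessory subunits. In complex I, accessory subunits had 23 of 41 probes higher and 2 lower with a median of 0.14, whereas the catalytic core, which carries the flavin and the iron-sulfur clusters, had 3 of 12 higher with a median of 0.09. In complex III, all 8 probes of the small subunits were higher, with a median of 0.18, and none of the 3 probes of the core proteins and the iron-sulfur protein were called (adjusted p from limma of at least 0.0717). In complex IV, all 11 probes of the general subunits were higher, with a median of 0.22. In complex V, 2 of 8 probes of the F1 part were higher, with a median of 0.08, and 11 of 22 of the stalk and membrane part, with a median of 0.13. These splits are counts of calls, and the difference between classes was not tested.

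The promoters of the members moving most were examined for motifs of factors known for respiratory chain genes and for the E-box CACGTG, a palindrome that resembles the core of ChREBP response elements. All 83 gene names matched a RefSeq gene, and 68 had a promoter of 300 bases (250 before and 50 after the start site, GRCm38.p6), searched on both strands beside 27025 promoters of all genes. The NRF-1 motif GCGCANGC stood in 33.8% of member promoters and 2736 of the 27025 promoters of all genes, the ETS motif CCGGAAG in 22.1% and 9.12%, and the YY1 motif AAGATGGC in 14.7% and 2.88%. The Sp1 motif GGGCGG stood in 41.2% and 35.9%, and the E-box in 10.3% and 7.24%. Of the 44 members with a promoter and a probe called higher, 27.3% held the NRF-1 motif, 20.5% the YY1 motif and 13.6% the E-box. In the 24 members with none called higher these shares were 45.8%, 4.17% and 4.17%. Of 12 complex IV promoters, 1 held the NRF-1 motif and none the E-box, while 5 of 16 complex V promoters held the E-box. A match describes letters in a window and not binding, and the 5 motifs share no bases in the stretches below.

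The 250 bases before the start site are printed for Ndufa8, the member that fell most, and for Ndufa7, Uqcr11 and Cox6b1, the members of complexes I, III and IV whose rise was among the clearest. Sequences are from RefSeq (GRCm38.p6), 5′ to 3′ on the strand of the gene, with motif matches in capitals. The stretches are chr2:36049339-36049588 (minus strand) for Ndufa8 and chr17:33824322-33824571 (plus strand) for Ndufa7. They are chr10:80406822-80407071 (minus strand) for Uqcr11 and chr7:30626115-30626364 (minus strand) for Cox6b1. Ndufa8 held 2 NRF-1 and 2 Sp1 matches, Ndufa7 the E-box, and Uqcr11 and Cox6b1 an ETS match each. Uqcr11 also held an NRF-1 match on the minus strand that begins at -4 and crosses the start site, so it is not in capitals.
Ndufa8: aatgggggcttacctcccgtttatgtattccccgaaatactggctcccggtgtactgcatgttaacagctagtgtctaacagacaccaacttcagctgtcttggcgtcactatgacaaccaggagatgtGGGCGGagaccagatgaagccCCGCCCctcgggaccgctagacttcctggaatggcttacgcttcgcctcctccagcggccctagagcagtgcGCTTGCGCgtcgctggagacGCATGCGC
Ndufa7: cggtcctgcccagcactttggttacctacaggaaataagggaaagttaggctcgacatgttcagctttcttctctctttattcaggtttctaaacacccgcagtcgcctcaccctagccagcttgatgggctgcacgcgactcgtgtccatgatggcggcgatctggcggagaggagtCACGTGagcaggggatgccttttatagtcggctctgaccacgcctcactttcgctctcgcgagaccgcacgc
Uqcr11: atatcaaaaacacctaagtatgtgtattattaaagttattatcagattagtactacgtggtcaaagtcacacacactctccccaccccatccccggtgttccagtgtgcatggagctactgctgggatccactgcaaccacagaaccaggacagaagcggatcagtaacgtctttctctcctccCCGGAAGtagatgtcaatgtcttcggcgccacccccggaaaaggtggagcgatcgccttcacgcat
Cox6b1: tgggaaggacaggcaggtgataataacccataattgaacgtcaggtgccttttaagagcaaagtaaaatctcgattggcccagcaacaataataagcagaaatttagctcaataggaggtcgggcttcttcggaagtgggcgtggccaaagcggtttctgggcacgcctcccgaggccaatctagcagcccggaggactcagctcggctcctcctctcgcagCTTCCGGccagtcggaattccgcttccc

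Ndufa8, an accessory subunit on the intermembrane-space side of complex I, was the member that fell most. Its log2 signal in total ChREBP-KO mice was 12.71 at the lowest, 12.78 at the median and 12.94 at the highest, against 13.12, 13.63 and 13.68 in WT littermates. The groups did not overlap, although WT replicate 2 lay well below the other WT mice. The log2 difference was -0.76 (standard error 0.08, fold 0.592, limma adjusted p = 2.68e-08). Across the alternatives tried the difference stayed between -0.82 and -0.67. In the ChREBPβ line the values ran from 12.97 to 13.45 in deficient mice and from 12.89 to 13.45 in WT littermates, with a difference of -0.04. The probe lies at chr2:35891871-35891930 (mm9, minus strand).

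Most other accessory subunits of complex I rose together by similar amounts. Ndufa7 read 15.28, 15.35 and 15.44 (lowest, median, highest) in total ChREBP-KO mice and 15.07, 15.15 and 15.19 in WT littermates, so that all knockout mice lay above all WT mice. Its log2 difference was 0.24 (standard error 0.04, limma adjusted p = 5.63e-06). Ndufb2, of the membrane arm, read 14.22, 14.36 and 14.40 against 13.93, 14.10 and 14.12 with 1 of its bright probes, again without overlap (0.28, limma adjusted p = 1.86e-05). Ndufa5, in the arm that reduces ubiquinone, read 15.30, 15.38 and 15.47 against 14.98, 15.13 and 15.27, without overlap (0.25, limma adjusted p = 2.71e-05). Ndufa3 and Ndufb4, both of the membrane arm, rose by 0.26 and 0.24, and Ndufa2, of the NADH-oxidizing part, by 0.24. Ndufa4, once counted with complex I and now known to belong to complex IV, rose by 0.16. Ndufa1, Ndufa6, Ndufa10, Ndufa11 and Ndufc2 were not called, with differences of -0.06 to 0.08.

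In the catalytic core of complex I, Ndufs3, Ndufs8 and Ndufv2 were called higher, each on 1 probe, with differences of 0.14, 0.13 and 0.13. Ndufs3 read 14.70, 14.82 and 14.89 in total ChREBP-KO mice and 14.52, 14.65 and 14.83 in WT littermates, with overlap. Ndufs1, Ndufs7 and Ndufv1 were not called, with differences of -0.01 to 0.11. For Ndufs1, an iron-sulfur subunit of the core, the 95% interval of the brighter probe was -0.11 to 0.09.

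Ndufa13, known as GRIM-19, was called lower on a dim probe and was not called on its bright one. The bright probe read 16.54, 16.62 and 16.66 in total ChREBP-KO mice and 16.53, 16.60 and 16.76 in WT littermates, a difference of 0.01 (limma adjusted p = 0.888). The dim probe read 5.89, 6.11 and 6.28 against 6.26, 6.64 and 6.78, a difference of -0.44 (limma adjusted p = 0.00158). The array annotation describes the dim probe, at chr8:72411694-72411753 (mm9, minus strand), as a transcript of the neighboring Yjefn3, and the bright probe, at chr8:72418102-72418161, as the Ndufa13 mRNA. The first 30 bases of each probe are shown because they are different sequences under 1 gene name.
Ndufa13 bright probe: gagatgagcaatgccaacttcggcttcacc
Ndufa13 dim probe: caaaatatactggcaccgactgcgtggcct
In Ndufb2, Ndufb8, Ndufs3 and Ndufv2 as well, a called probe and an uncalled probe had opposite signs. In these genes the uncalled probe was dim, with differences of -0.25, -0.15, -0.04 and -0.10. It lists no RefSeq mRNA, apart from a predicted one for Ndufb8. No gene had probes called in both directions.

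Complex II, which links the tricarboxylic acid cycle to the chain and has 4 subunits, had the fewest calls. Sdhc, a membrane anchor, read 13.13, 13.19 and 13.40 in total ChREBP-KO mice and 12.91, 13.10 and 13.21 in WT littermates. The groups overlapped, and the difference of 0.13 was called (limma adjusted p = 0.0376) but lost its call under 14 of the alternatives. Sdhd differed by 0.13 (limma adjusted p = 0.0762), the Sdhb probes by 0.09 and 0.14, and the 4 probes of the flavoprotein Sdha by -0.09 to 0.10.

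In complex III, the small subunits around the catalytic core rose. Uqcr11, a small membrane subunit, read 16.20, 16.28 and 16.31 in total ChREBP-KO mice and 15.81, 15.94 and 16.12 in WT littermates, without overlap. Its log2 difference of 0.32 (standard error 0.04, fold 1.24, limma adjusted p = 9.5e-07) lay between 0.25 and 0.38 under all alternatives and was called in each. Uqcrq, a ubiquinone-binding subunit, read 17.12, 17.25 and 17.33 against 16.97, 17.11 and 17.18, with overlap (0.15, limma adjusted p = 0.00595). Uqcrh, the hinge protein at cytochrome c1, read 16.11, 16.24 and 16.44 against 15.84, 16.09 and 16.27, with overlap (0.17, limma adjusted p = 0.0184), and lost its call under 7 of the alternatives. Uqcr10 rose on both its probes, by 0.13 and 0.18, and the first lost its call under 10 of the alternatives. The core proteins Uqcrc1 and Uqcrc2 and the iron-sulfur protein Uqcrfs1, which passes electrons from ubiquinol, had differences of 0.13, 0.06 and 0.01 and were not called.

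Uqcrb, which helps to form the ubiquinone site, rose on all 3 of its probes by unequal amounts. The brightest probe, at chr13:67001654-67001713 (mm9, minus strand), read 15.39, 15.54 and 15.63 in total ChREBP-KO mice and 15.25, 15.35 and 15.53 in WT littermates, a difference of 0.17 (limma adjusted p = 0.00696). A dim probe at chr13:67002057-67002116, which lists no RefSeq mRNA, read 5.37, 5.98 and 6.27 against 4.85, 5.09 and 5.85, a difference of 0.65 (limma adjusted p = 0.000251). The WT littermates of the ChREBPβ line read 5.84 to 6.33 on this dim probe, so the WT mice of the total ChREBP-KO line were the low group. The 2 probe starts are shown because they tell the transcripts apart.
Uqcrb bright probe: aggagagagaagagtgggcaaagaagtgat
Uqcrb dim probe: agtctttagtatggaaagcctgggctagaa

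Complex IV, cytochrome c oxidase, had calls throughout its general subunits. All 10 genes of these were called higher, with differences of 0.13 to 0.30. Cox6b1, which faces the intermembrane space where cytochrome c docks, read 12.48, 12.61 and 12.71 in total ChREBP-KO mice and 12.16, 12.33 and 12.43 in WT littermates, without overlap (0.30, standard error 0.05, limma adjusted p = 7.47e-05). Cox4i1, the largest nuclear-encoded subunit, read 16.32, 16.42 and 16.49 against 16.11, 16.19 and 16.30, without overlap (0.23, limma adjusted p = 4.2e-05). Both probes of Cox7c were 0.25 higher without overlap, and the brighter one read 14.46, 14.60 and 14.68 against 14.15, 14.38 and 14.44. Cox8a read 16.64, 16.67 and 16.73 against 16.28, 16.46 and 16.58, without overlap (0.24). Cox6c rose by 0.22, Cox6a1 and Cox7b by 0.18, and Cox7a2 by 0.16. Cox7a2l, annotated as Cox7a2-like and counted here with the general subunits, rose by 0.17, and Cox5a by 0.13. Both had overlap between the groups, and Cox7a2l lost its call under 12 of the alternatives.

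**Figure D2:**
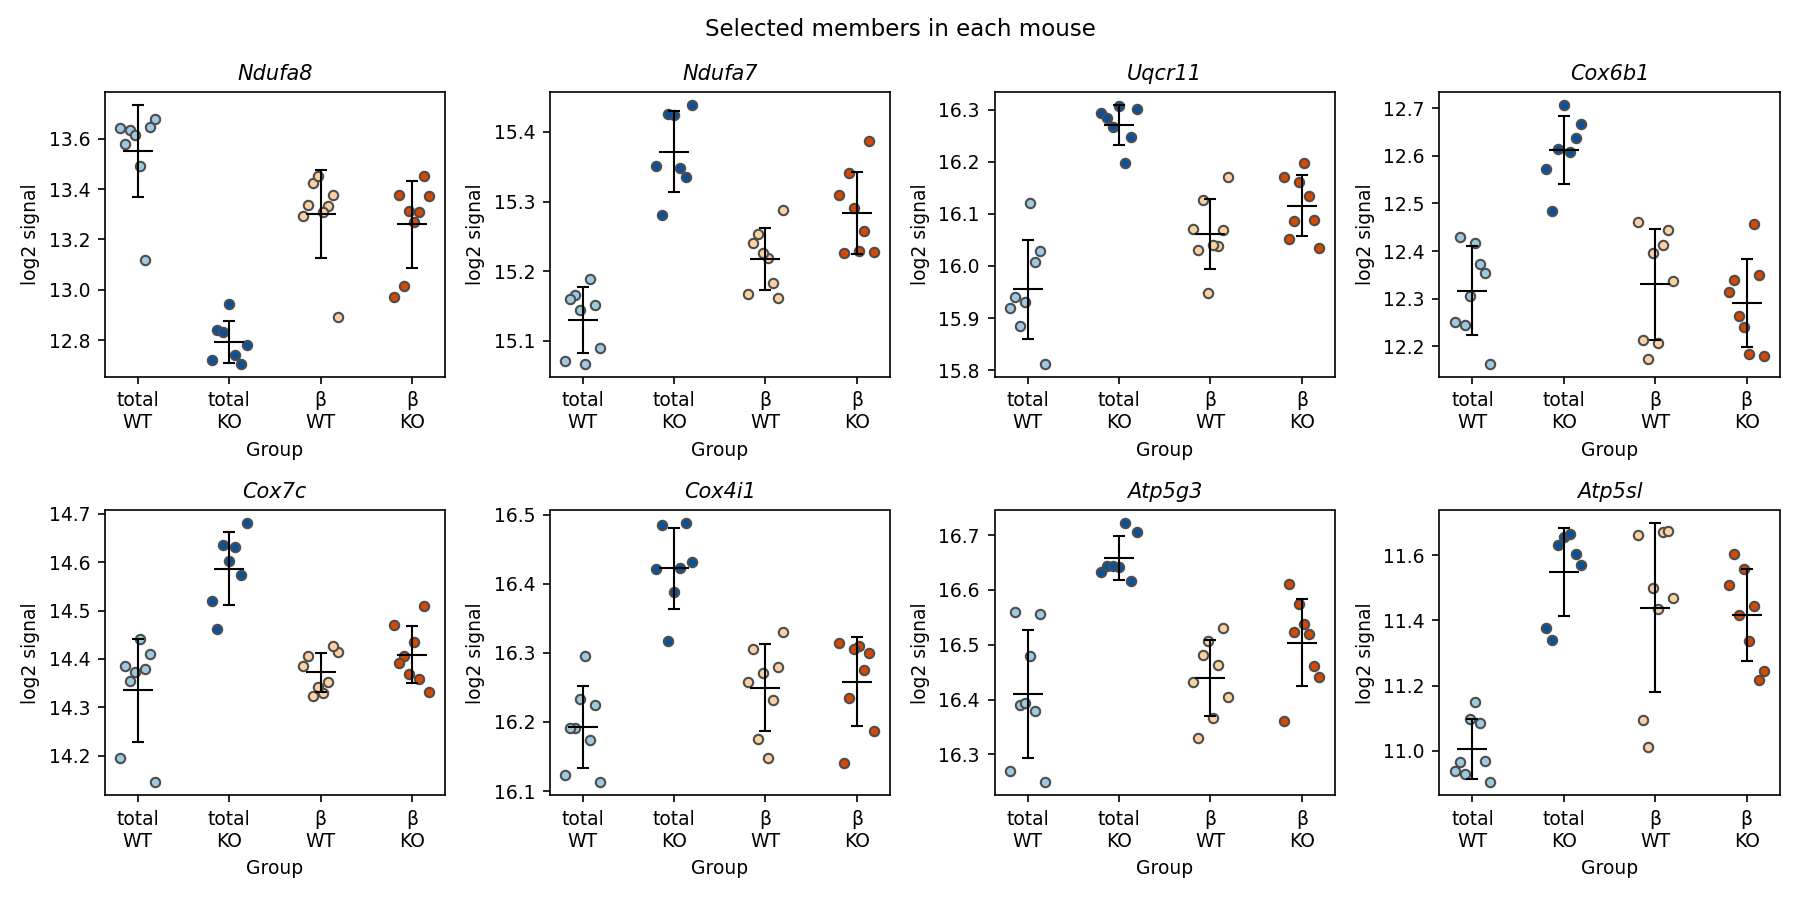
Each point is 1 mouse, with its log2 signal for 8 member genes in the 4 groups; bars are the mean and SD. Ndufa8 is lower in all 7 total ChREBP-KO mice (12.71 to 12.94) than in all 8 WT littermates (13.12 to 13.68), the other 7 genes are higher without overlap, and in the ChREBPβ line the groups overlap for all 8 genes.

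The tissue isoforms of complex IV behaved differently from the general ones. Cox6a2, Cox7a1 and Cox8b are the isoforms of heart and skeletal muscle, partly also of brown fat, and stand in for Cox6a1, Cox7a2 and Cox8a there. In replicate 6, the total ChREBP-KO mouse with high Acta1 and Tnnt3, Cox6a2 read 9.55 and Cox8b 9.14. The other 6 total ChREBP-KO mice read at most 7.36 and 5.32, and WT littermates 5.92 to 6.41 and 4.64 to 6.39. The differences of 0.69 for Cox6a2 and 0.54 for Cox8b were not called (limma adjusted p = 0.0963 and 0.362), and without replicate 6 they were 0.25 and -0.05. The 4 muscle markers kept of 6 had a summed log2 signal of 7.80 to 12.36 in total ChREBP-KO mice and 7.80 to 8.08 in WT littermates. Cox7a1 read 10.14, 10.48 and 10.86 against 9.40, 10.06 and 10.43, with replicate 6 at 10.48, and its difference of 0.41 was called (limma adjusted p = 0.0168), also without replicate 6 (0.41, limma adjusted p = 0.0273). Without all 5 arrays with other markers it was 0.29 and not called (limma adjusted p = 0.162), and without all 6 arrays 0.28 (limma adjusted p = 0.205).

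The testis isoform Cox6b2 had the largest difference among the isoforms called. It read 7.59, 7.82 and 8.36 in total ChREBP-KO mice and 7.12, 7.26 and 7.57 in WT littermates, without overlap (0.60, standard error 0.10, limma adjusted p = 2.87e-05), and 0.58 without replicate 6. The signal was low next to the range of the array, and the mice of the ChREBPβ line read 6.67 to 7.28. Cox4i2, the lung isoform, and Cox7b2, another testis isoform, had differences of 0.02 and 0.03 and were not called. Probe Cox8c was removed as dim, being well above background on 1 array.

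**Figure D3:**
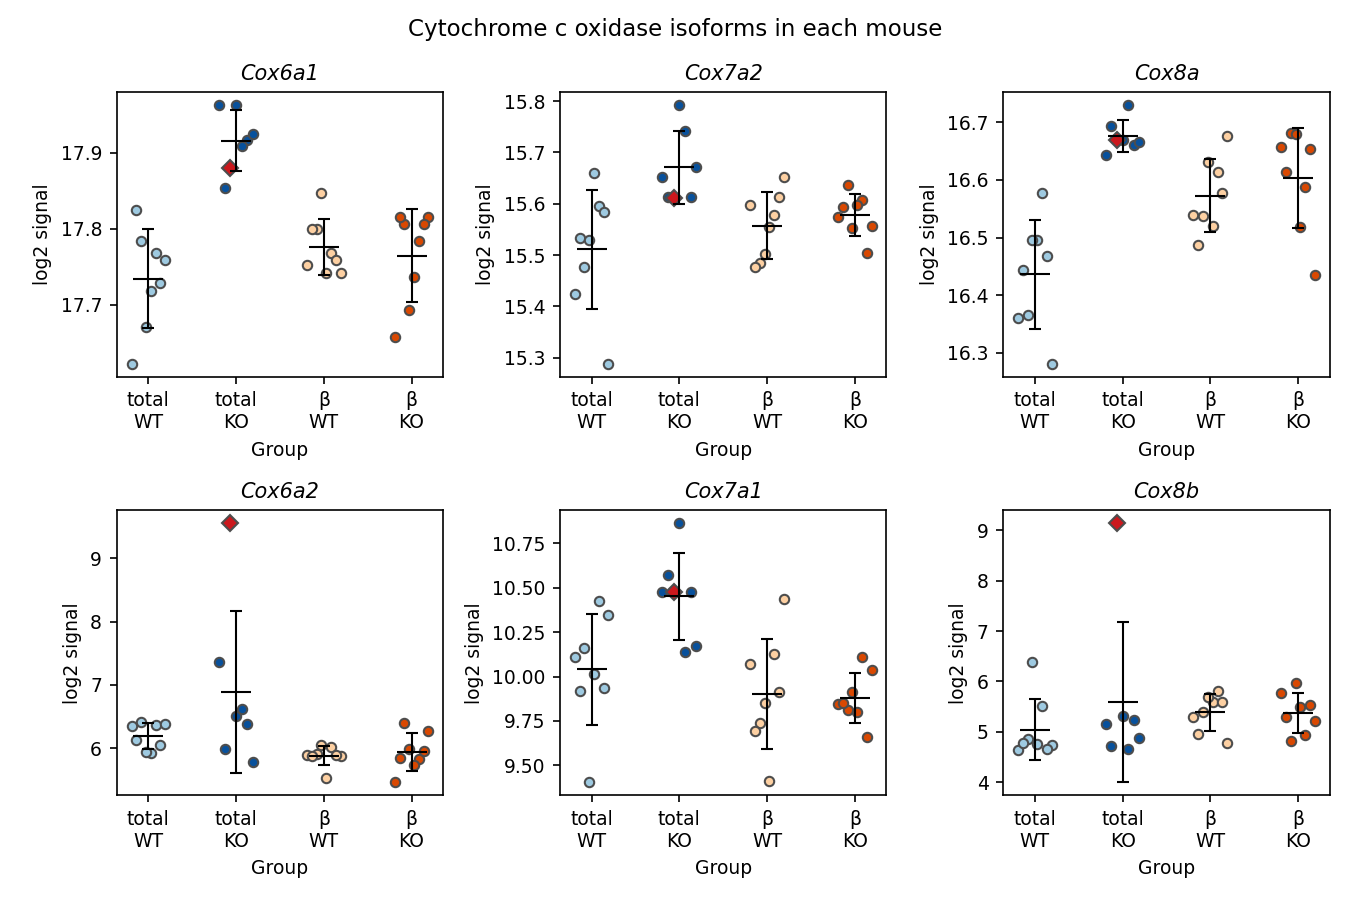
Each point is 1 mouse, with its log2 signal for the general (top) and muscle (bottom) isoforms of 3 complex IV subunits; the red diamond is total ChREBP-KO replicate 6, and bars are the mean and SD. The diamond sits within its group for Cox6a1, Cox7a2, Cox8a and Cox7a1, but at 9.55 for Cox6a2 and 9.14 for Cox8b, above all other mice.

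In complex V, the catalytic α and β subunits, Atp5a1 and Atp5b, had differences of 0.04 to 0.14 over 5 probes and were not called. The rotor subunits Atp5d and Atp5e of the F1 part were called higher. Atp5d read 14.42, 14.49 and 14.60 in total ChREBP-KO mice and 14.15, 14.25 and 14.38 in WT littermates, without overlap (0.25, limma adjusted p = 0.000304). Atp5e rose by 0.18 with overlap. Among the 3 genes that encode the same mature c-ring protein, the brightest probe of Atp5g3 read 16.62, 16.64 and 16.72 against 16.25, 16.39 and 16.56, without overlap (0.25, limma adjusted p = 0.000168). The brightest probes of Atp5g1 and Atp5g2 differed by 0.08 and -0.01 and were not called. Of the 3 Atp5g1 probes, with differences of 0.08 to 0.16, 1 was called higher. Of the membrane subunits that shape cristae, Atp5l rose by 0.18 and 0.16 on its probes and Atp5j2 by 0.18. Of the peripheral stalk, Atp5o rose by 0.17 and Atp5h by 0.13 on their brightest probes, and Atp5f1 rose only on a dim probe (0.40) while its bright probes differed by 0.05 and 0.02.

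Atp5sl, named for its likeness to an ATP synthase factor and known for a role in assembling complex I, rose on both of its probes. Its brighter probe read 11.34, 11.60 and 11.67 in total ChREBP-KO mice and 10.90, 10.97 and 11.15 in WT littermates, without overlap (0.54, standard error 0.09, limma adjusted p = 1.4e-05), and its other probe rose by 0.58. The ChREBPβ line read 11.22 to 11.60 in deficient mice and 11.01 to 11.68 in WT littermates, so the WT mice of the total line stood below both of its groups on median. The difference between the WT groups was -0.44 (limma adjusted p = 0.0005).

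The mean deviation of each complex from the WT littermates was also taken in single mice. For complex III the 7 total ChREBP-KO mice lay between 0.15 and 0.25 and the WT littermates reached 0.09 at most. The general subunits of complex IV lay between 0.13 and 0.27 in the knockout mice, against at most 0.08. For complex V the lowest knockout mouse (0.066) was just above the highest WT mouse (0.064). That mean counts the probes of Atp5s, Atp5sl and Atp5c1-ps, which are not established subunits. Its F1 part overlapped (0.02 to 0.17 in knockout mice, up to 0.11 in WT littermates). In its stalk and membrane part the lowest knockout mouse read 0.071 and the highest WT mouse 0.070. Complexes I (0.02 to 0.11) and II (0.01 to 0.13) overlapped with WT littermates, which reached 0.07 and 0.05. The general complex IV subunits stood above complexes I and II in 7 of 7 knockout mice, above complex V in 6 and above complex III in 4. Complexes III and V each stood above complexes I and II in 7 of 7, and complex I above complex II in 5. These means are a description, and probes of 1 mouse share an array. The medians of complexes I and V over probes were alike, so their order here is one of means. Single probes weigh on such means, as Atp5sl (0.54 and 0.58) and the dim Atp5f1 probe (0.40) do in complex V. The dim Uqcrb probe (0.65) does so in complex III, and Ndufa8 (-0.76) and the dim Ndufa13 probe (-0.44) in complex I. Their weight in the order was not tested. The 7 hepatocyte markers had a summed log2 signal of 20.64 to 20.70 in total ChREBP-KO mice and 20.45 to 20.55 in WT littermates. Of these, Cyp2e1 (18.05 to 18.37 against 17.27 to 17.72) and Ttr (17.92 to 18.06 against 17.69 to 17.89) did not overlap. Alb read 18.96 on every array, a value that quantile normalization gives to a probe of fixed rank, so it cannot show a change. The median of Apoa1 was 16.18 in both groups, and those of Serpina1a, also near the top of the range, were 18.73 and 18.71. Cps1 (medians 14.55 and 14.13) and Tat (15.38 and 14.87) overlapped. Their part in the result was not tested.

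**Figure D4:**
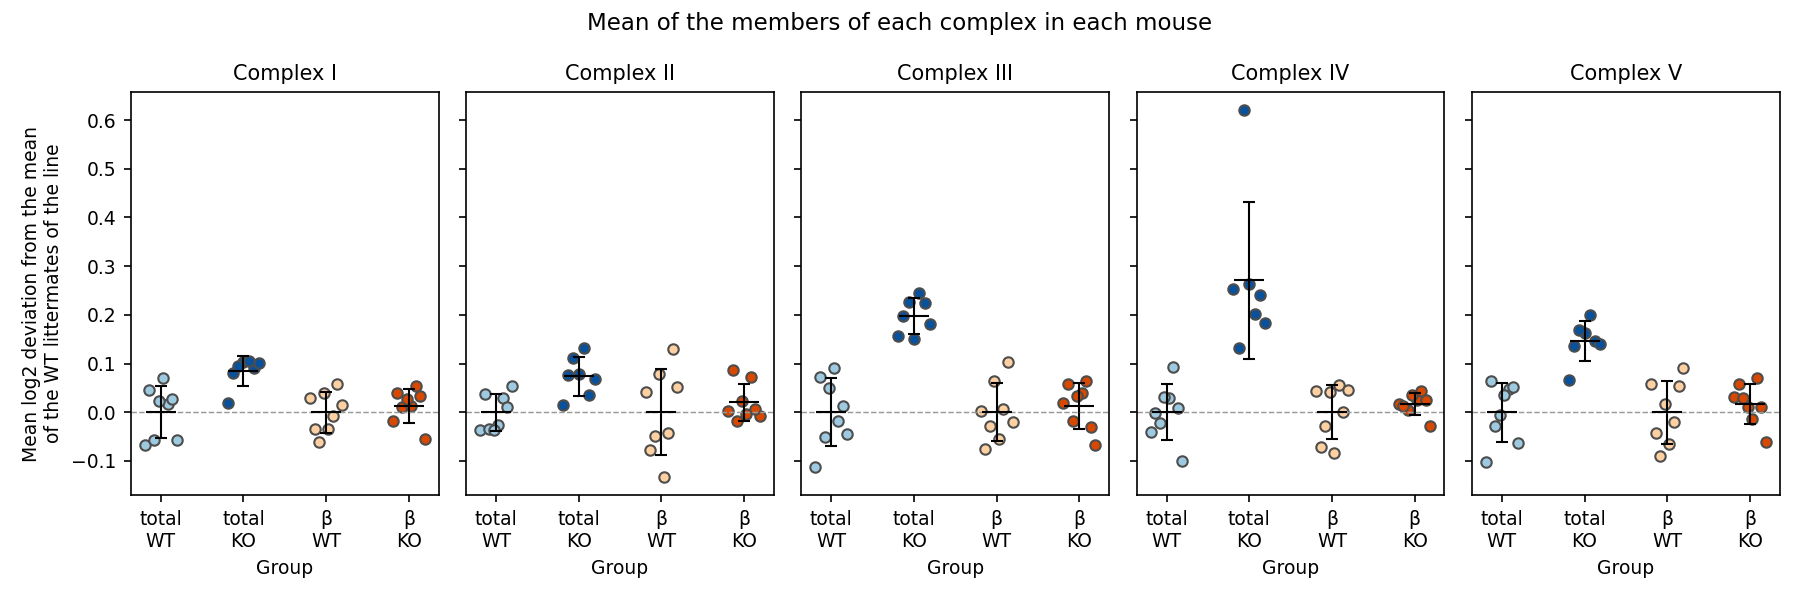
Each point is 1 mouse, with the mean log2 deviation of all probes of a complex from the mean of the WT littermates of its line; bars are the mean and SD. Total ChREBP-KO mice lie above all WT littermates for complexes III and IV, and narrowly for V, whose mean counts relatives and a pseudogene. They overlap with WT littermates for I and II, and reach 0.62 for complex IV in replicate 6. The ChREBPβ groups overlap for all 5 complexes.

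In ChREBPβ-deficient livers none of the 124 members was called in either direction by limma, where 0% of all probes were called higher and 0.00277% lower. The exact Mann-Whitney test could call none in this line, because too few probes separated the groups completely to pass its adjustment. The groups overlapped for every member, while over all probes every deficient mouse lay above every WT mouse in 0.00832% and below in 0.0139%. At an unadjusted limma p under 0.05, 4 members were higher and 1 lower, while 2.53% of all probes were higher and 2.45% lower. These were Ndufa6 (0.11), Ndufs5 (0.10), Cox6c (0.10), a dim probe of Atp5j (0.19) and, lower, a dim probe of Ndufv3 (-0.14), with limma adjusted p of at least 0.972. The medians for complexes I to V were 0.03, 0.04, 0.01, 0.02 and 0.01. For Cox4i1 the 95% interval of the difference was -0.07 to 0.09, for Uqcr11 -0.03 to 0.14 and for Ndufa8 -0.20 to 0.12.

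The effects in both lines were compared directly as a difference of differences. For 27 members the effect in the total ChREBP-KO line was higher than in the ChREBPβ line, where 7.02% of all probes were, and for 1, Ndufa8, it was lower, where 8.08% were. The 27 probes comprised 12 of complex I, 3 of complex III, 7 of complex IV and 5 of complex V, and none of complex II. For Uqcr11 the effects differed by 0.26 (standard error 0.06, limma adjusted p = 0.00215), for Cox6b1 by 0.34 (limma adjusted p = 0.00184) and for Ndufa8 by -0.71 (limma adjusted p = 4.92e-05). Ndufa7 (0.18), Cox4i1 (0.22), Cox8a (0.21), Cox6b2 (0.59) and Atp5sl (0.57) were also called. Atp5g3 and Atp5d, called in the total ChREBP-KO line, were not called for the difference (0.18 and 0.19, limma adjusted p = 0.0571 and 0.0604). The count of members higher was 2 on either scan day alone, 42 with the processed signal scaled to its 75th percentile and 50 with the deposited table.

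Between the WT littermates of the lines, members were called no more often than all probes were, and most of their calls were lower. Against the WT littermates of the ChREBPβ line, those of the total line had 3 of 124 members higher and 16 lower. Of all probes, 8.12% were higher and 8.92% lower. The median over the members was -0.05. Of the 16 lower members, 10 were among those called higher in total ChREBP-KO mice, and the 6 others were not called there. Ndufa8 (0.25) and the dim Ndufa13 probe (0.29) were higher in the WT mice of the total line, and Ndufs8 (-0.18), Ndufa2 (-0.17), Cox8a (-0.14) and Uqcrq (-0.13) were lower. This contrast shares its WT mice with the knockout contrast, so its counts are no independent support. Without the 5 arrays with other markers, 1 member was higher and 16 lower, and without all 6 arrays 1 and 15. Members lower numbered 8 with slide as a fixed block, 5 on each scan day alone and 7 with 1 probe per gene.

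Lists of other mitochondrial genes differed in their calls in total ChREBP-KO livers. None of the 11 probes of subunits encoded in mitochondrial DNA was called by limma (without adjustment, 1 had p under 0.05, higher), and their differences ran from -0.16 for ND1 to 0.09 for COX1, with a median of 0.01. Of 16 probes of nuclear subunits and carriers outside the name rule, 8 were higher and 1 lower with a median of 0.15, and 13 of the 16 differences were above 0. Those higher included cytochrome c, Cycs (0.21), the ATP synthase inhibitor Atpif1 (0.31 and 0.26), the adenine nucleotide carrier Slc25a4 (0.28) and Usmg5 of complex V (0.18 and 0.20). Ndufab1, the acyl carrier protein, was lower on 1 probe (-0.16) and higher on its brighter one (0.15).

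Assembly factors gave mixed calls, to be read against the 14.5% of all probes higher and 14.6% lower. Those of complex I had 2 of 24 probes higher and 4 lower, those of complexes II, III and V 6 of 25 higher and 3 lower, and those of complex IV 11 of 38 higher and 5 lower, with medians of -0.01, 0.00 and 0.02. The shares higher were 8.33%, 24% and 28.9%. Coa5 (0.59) and Pet100 (0.29) of complex IV rose, whereas the copper chaperone Sco2 (-0.77) and the heme A synthase Cox15 (-0.23) fell. Lyrm7, an assembly factor of complex III, fell by 0.61 on the log2 scale.

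The tricarboxylic acid cycle had 3 of 26 probes higher (11.5%, below the share of all probes) and 5 lower, and the brighter of the Cs probes, for citrate synthase, was lower (-0.54, limma adjusted p = 0.00377), while the other was not called (-0.22). The other routes of electrons to ubiquinone had 3 of 14 probes higher (21.4%) and 2 lower, with 12 differences above 0 and a median of 0.10. Of these, Gpd2, the mitochondrial glycerol-3-phosphate dehydrogenase, fell most (-2.11, standard error 0.18, limma adjusted p = 2.69e-10), while Etfb of the electron transfer flavoprotein rose by 0.26 and 0.29. Genes of mitochondrial biogenesis and transcription had 2 of 32 higher (6.25%) and 4 lower. Ppargc1b (-0.60), Tfb1m (-0.33), Polrmt (-0.24) and Gabpa (-0.24) were lower, and Yy1 (0.25) and Mterf1a (0.39) higher, each on 1 probe, and other probes of Ppargc1b, Gabpa, Yy1 and Mterf1a were not called. Mitochondrial ribosomal proteins had 12 of 112 higher (10.7%) and 18 lower, with a median of 0.00. In ChREBPβ-deficient mice the limma adjusted p of every probe of these lists was at least 0.909.

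**Figure D5:**
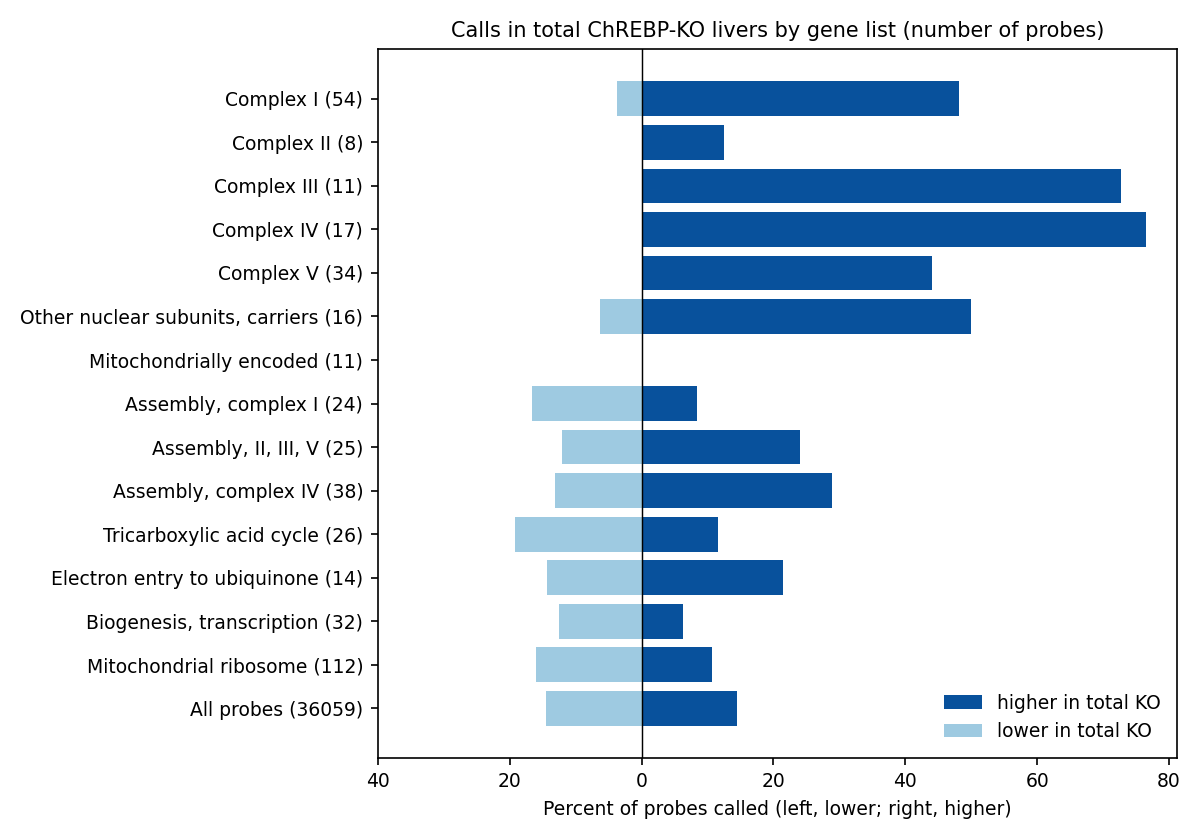
Bars give the percent of probes of each gene list called higher (right) or lower (left) by limma in total ChREBP-KO livers, with the number of probes in parentheses. Complexes III and IV reach 72.7% and 76.5% higher, complex II 12.5%, all probes 14.5%, and the subunits encoded in mitochondrial DNA have no call.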

How the data were processed

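Liver RNA was hybridized to 31 one-colour Agilent mouse arrays, 1 per mouse. Per the labels, the authors scanned the arrays with Agilent Feature Extraction 10.10.1.1 and processed them with limma (version not given in the sources used here). The deposited scanner files hold intensity values, and the deposited table holds log2 values normalized by the authors. The log2 of the median spot intensity, with no background subtraction, was taken. Spots were kept when they stood well above background in 26 arrays or more, or in 6 of 1 group, and were quantile normalized, and spots of a probe were summarized by their median. The deposited log2 values of the authors minus these had a 1st to 99th percentile of -0.0302 to 0.0270. All 4 groups entered 1 limma fit (limma 3.58.1, R 4.3.3) with empirical Bayes moderation and Benjamini-Hochberg adjustment over 36059 probes, at a threshold of 0.05, tested on simulated data first. Figures were drawn with matplotlib 3.10.9. Each probe was tested on its own, and precision is limited by the number of arrays (34131 to 38612 spots well above background each).

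Members and gene lists were chosen with earlier results of these data known. Values are given for up to 5 members per complex called in each direction with the largest differences, up to 5 called for the difference of effects, isoform families, and members whose probes disagree. Groups came from the genotype labels, and mice are the replicates. Replicate numbers were not taken to pair the mice, as not every pair correlated positively: deviations of same-numbered mice correlated at -0.215 to 0.241 (7 pairs) and -0.156 to 0.533 (8 pairs). Alternatives covered scaling, background correction, the filter, the deposited table, slide, scan day, the replicate block, the exact Mann-Whitney test, 1 probe per gene and leaving out each mouse. The sets without 5 and 6 arrays and the set with RefSeq mRNAs were chosen after seeing the data.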

Additional observations from a re-analysis of the deposited data

Results flagged for a closer look

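Of 200 groups of mice examined for a value far from the rest, 14 held one, where chance gives about 1 in 20. Total ChREBP-KO replicate 6 accounted for 3 of them, with Cox6a2 at 9.547, Cox8b at 9.137 and a complex IV mean deviation of 0.62. It also had high Acta1 and Tnnt3, and the part of these muscle markers in the result was not tested. Total ChREBP-KO replicate 1 had the lowest complex I mean deviation of its group, at 0.01824. Ndufa8 was low in replicate 2 of both WT groups, at 13.12 in the total ChREBP-KO line and 12.89 in the ChREBPβ line. Within total ChREBP-KO mice, Sdhc was high in replicate 8 (13.4) and the bright Ndufa13 probe low in replicate 5 (16.54). Among their WT littermates, replicate 6 was high for Uqcr10 (16.13) and Cox4i2 (8.491). In ChREBPβ-deficient mice, Ndufa2 was low in replicate 5 (15.3) and the bright Ndufa13 probe high in replicate 8 (16.79). In their WT littermates, Atp5g1 was high in replicate 2 (15.92) and Cox6a2 low in replicate 6 (5.536).

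For 28 probes the log2 effect in the total ChREBP-KO line differed from that in the ChREBPβ line by the interaction test of limma. In complex I the differences were -0.7137 for Ndufa8, 0.1939 for Ndufa2, 0.2284 for Ndufa3, 0.1857 and 0.187 for Ndufa5 and 0.176 for Ndufa7. They were 0.248 and 0.1817 for Ndufb2, 0.1912 for Ndufb4, 0.232 for Ndufb5, 0.1816 for Ndufb9, 0.1895 for Ndufb10 and 0.2068 for Ndufs6. In complex III they were 0.2244 for Uqcr10, 0.2612 for Uqcr11 and 0.7366 for the dim Uqcrb probe. In complex IV they were 0.2203 for Cox4i1, 0.1924 for Cox6a1, 0.3353 for Cox6b1, 0.5893 for Cox6b2, 0.2611 and 0.2142 for Cox7c and 0.209 for Cox8a. Among probes named for complex V they were 0.3591 for the dim Atp5f1 probe, 0.207 for Atp5g1, 0.1381 for Atp5l, and 0.5291 and 0.5676 for Atp5sl.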

How the results depend on the processing

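The count of members higher in total ChREBP-KO mice was 52 to 65 when each mouse was left out and 15 to 73 over the other 19 settings, with 37 on scan day 1 alone and 15 on scan day 2 alone, where fewer arrays were tested. The count of members lower was 2 to 3 without each mouse, and 1 on scan day 1 alone, with 1 probe per gene and with RefSeq mRNAs only. The median of complex I was 0.18 without the 5 arrays with other markers and without all 6, and in ChREBPβ-deficient mice it was -0.021 with the processed signal and -0.018 with the median signal, each scaled by the 75th percentile of its array. No member was called in ChREBPβ-deficient mice under any setting, but the exact Mann-Whitney test could make no call there. With the median signal scaled in this way the median of all probes was 0.07, with 17.3% called higher and 11.3% lower.

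For the difference of effects, 42 members were higher with the processed signal, 50 with the deposited table, and 2 on each scan day alone, and 0 were lower on scan day 1. The replicate block, whose numbers were not taken to pair the mice (the best match of a mouse had its own number in 4 of 8 pairs of the ChREBPβ line and 1 of 7 of the total line), changed no call of members in the ChREBPβ line. It gave 63 higher and 2 lower in total ChREBP-KO mice, and 2 lower for the difference of effects. Between the WT groups, 0 members were higher with slide as a fixed block and on scan day 1, and 1 on scan day 2, by the exact Mann-Whitney test, without the 5 arrays and without all 6. Leaving out each mouse gave 0 to 3 higher, with 0 without WT replicate 7 of the total line. Members lower there numbered 8 with slide as a fixed block, 5 on each scan day, 7 with 1 probe per gene and 9 with RefSeq mRNAs only. The causes were not tested.

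Of 2231 values of named genes, 2109 kept direction and call, 87 lost the call, 9 gained it and 26 changed sign, all in probes not called. Atp5g2 was 0.044 in the deposited table, 0.013 without the 5 arrays, 0.0079 without all 6 and -0.030 to 0.017 without each mouse. Cox4i2 was -0.0027 with slide as a fixed block, -0.056 on scan day 2, -0.0022 without the 5 arrays and -0.014 to 0.055 without each mouse. Cox7b2 was -0.17 on scan day 1 and -0.029 to 0.10 without each mouse, and Cox8b was -0.050 to 0.73 without each mouse. The bright Ndufa13 probe was -0.041 with the processed signal, -0.045 with the median signal, -0.013 on scan day 2 and -0.00096 to 0.031 without each mouse. The dim Ndufs3 probe was 0.012 with the processed signal, 0.077 with the median signal and 0.017 with slide as a fixed block, and the dim Ndufv2 probe was 0.020 with the median signal.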
